A study of Xenopus tropicalis with 18 samples.

Results

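A set of 43 genes had mean levels within 2-fold of each other across 3 control regions of the Xenopus tropicalis gut tube. The set was lower in foregut after each of 3 treatments, among 28863 genes in the deposited tables. Within the 2-fold limit, 34 of the 43 were highest in control foregut. The genes were picked by a rule on the measured values themselves. Of all genes, 12622 reached a mean of at least 5 CPM (counts scaled to the library's total count) in control foregut. Among these, 9532 had a highest regional mean under 2-fold of the lowest across foregut, hindgut and head with pharynx controls, and these are called flat genes here. All 3 treated means were under 0.8 of the control foregut mean for 57 flat genes. In 43 of those, every one of the 9 treated libraries also lay below every one of the 3 control foregut libraries, which held for 2.47% of flat genes at any ratio. The remaining 14 overlapped with the controls and were left out. The genes are ranked from 1 to 43 by the largest of their 3 ratios to control foregut, so that rank 1 is the gene that remained lowest under its weakest treatment. All statements on treated against control foregut therefore describe the choice and test nothing.

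RNA was sequenced from explants of mesoderm with endoderm cut from wild-type Nigerian-strain embryos at stage 33, with 8 explants pooled per library and 3 libraries in each of 6 groups. Control foregut carried 0.1% DMSO and 1 ng of a mismatch morpholino, injected at the 2-cell stage as 500 pg per cell. Control hindgut and control head with pharynx carried 0.1% DMSO, and their labels name no morpholino. The treated foregut groups received 40 µM cyclopamine or 100 nM BMS493 from stage 15 to stage 33, or 1 ng of a morpholino against Rfx6 with 0.1% DMSO. Labels of the drug groups name only the drug. An effect of the drug and a difference in morpholino or vehicle therefore cannot be told apart in comparisons with control foregut. The same holds for a drug group against the Rfx6 morpholino group. Where control foregut is set beside the other control regions, region and morpholino cannot be told apart. A morpholino blocks translation or splicing of its target and leaves the gene itself intact, so these are not mutant animals. The tissue is whole explant, and in such bulk RNA fewer cells of one type and less RNA per cell cannot be told apart.

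Cyclopamine binds Smoothened, the membrane protein that passes on the Hedgehog signal, and in the vertebrate gut tube Hedgehog ligands from the endoderm act on the surrounding mesoderm. BMS493 is an inverse agonist of retinoic acid receptors, nuclear receptors that help to set positions along the anterior-posterior axis of the embryo, the pancreas-forming foregut included. Rfx6 is a winged-helix transcription factor that in mouse and human is needed for formation of pancreatic endocrine cells.

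The deposited files do not pair identifiers with gene symbols, and 0 of the 28863 identifiers matched a RefSeq table of 28858 genes of this species. No role, position or sequence can therefore be given for any of the genes, and the labelled tissues could not be checked against marker genes. Lists of Hedgehog, retinoic acid, stress, cell cycle and cell type genes could not be counted for the same reason. The first 2 genes of the ranking are XBXT10g005311 and XBXT10g014326, and the others are called by rank. Libraries held 26006163 to 96814679 estimated counts, so that 1 CPM stood for at least 26 counts. The lowest count of any of the 43 genes in any library was 65 and the highest was 8937.

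The 43 genes were a small fraction of the flat genes, and most lay close to the limit of the rule. They made up 0.451% of the 9532 flat genes. A mirrored rule, with all 3 ratios above the reciprocal of 0.8 and every treated library above every control foregut library, was met by 117 flat genes, or 1.23%. Taken alone, a ratio under 0.8 was met by 468 flat genes with cyclopamine, 818 with BMS493 and 305 with the Rfx6 morpholino. A ratio above that reciprocal was met by 857, 1776 and 653. These counts depend on scaling by column totals, by which the median flat gene stood at 1.04, 1.08 and 1.03 of control foregut. The edgeR fit described below used TMM factors in place of column totals. It called 8.95%, 23.4% and 6.01% of flat genes lower and 10.4%, 16.4% and 6.66% higher, so the balance turned with BMS493. Lowering by all 3 treatments without overlap was a larger fraction of genes that were not flat, at 245 of 3090 (7.93%). Of these 245 genes, control foregut was the highest region for 161, control hindgut for 84 and control head with pharynx for 0. The matching shares of the 3090 genes were not counted, and the choice itself favours a high control foregut level. Flat genes were 75.5% of all genes at 5 CPM or more and 14.9% of those lowered by all 3 treatments without overlap.

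Most of the 43 genes were lowered by less than 2-fold in each treatment. The median gene stood at 0.684 of its control foregut level with cyclopamine (range 0.295 to 0.793), at 0.692 with BMS493 (0.388 to 0.796) and at 0.693 with the Rfx6 morpholino (0.422 to 0.799). Over all flat genes the medians were 1.04, 1.08 and 1.03. Every ratio was under 0.7 in 8 genes, under 0.6 in 2 and under 0.5 in 1, which leaves 35 genes whose weakest treatment kept 0.7 or more. The gap between the lowest control and the highest treated library was narrow, with a median of 1.1-fold (1.02 to 1.42), and it was under 1.1-fold in 22 genes. Just inside the limit of 0.8, the largest ratios were 0.794, 0.796 and 0.799. Just outside, in genes that met every other condition, they were 0.804, 0.810 and 0.810. The lowest control foregut level inside was 5.05 CPM and the highest outside was 4.99 CPM. The widest regional fold inside was 1.98 and the narrowest outside was 2.03. In the 14 overlapping genes the highest treated library was 1.02 to 1.51 times the lowest control library, and in 8 of them that control library was replicate 3.

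**Figure D1:**
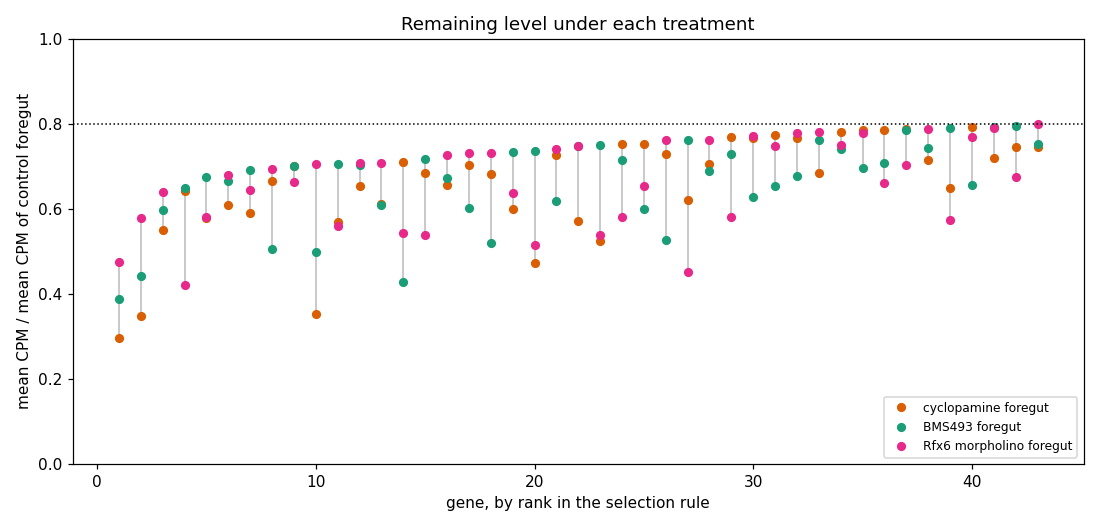
Remaining level of each of the 43 genes under cyclopamine (orange), BMS493 (green) and the Rfx6 morpholino (pink), as the treated mean CPM divided by the control foregut mean CPM (vertical axis, n = 3 libraries per group), against the rank in the selection rule (horizontal axis), with the limit of 0.8 dotted. The grey line joins the 3 ratios of a gene, whose spread runs from 0.0394 to 0.353.

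Summed over the 43 genes, the level was lower in each treated library than in any control foregut library, as the rule requires. The sum was 1190, 1315 and 1220 CPM in the 3 control foregut libraries (mean 1241 ± 65.3, SD, n = 3). It was 835, 812 and 901 CPM with cyclopamine (849 ± 46.1), 810, 817 and 849 CPM with BMS493 (826 ± 20.8) and 839, 834 and 914 CPM with the Rfx6 morpholino (862 ± 44.8). The 3 treated groups overlap with each other in this sum and none reaches the control foregut. Control hindgut, at 1014, 1073 and 1054 CPM (1047 ± 30.6), lay below every control foregut library and above every treated library. On this scale of column totals, control head with pharynx, at 888, 907 and 898 CPM (897 ± 9.37), lay above the BMS493 libraries. It overlapped with both other treated groups.

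**Figure D2:**
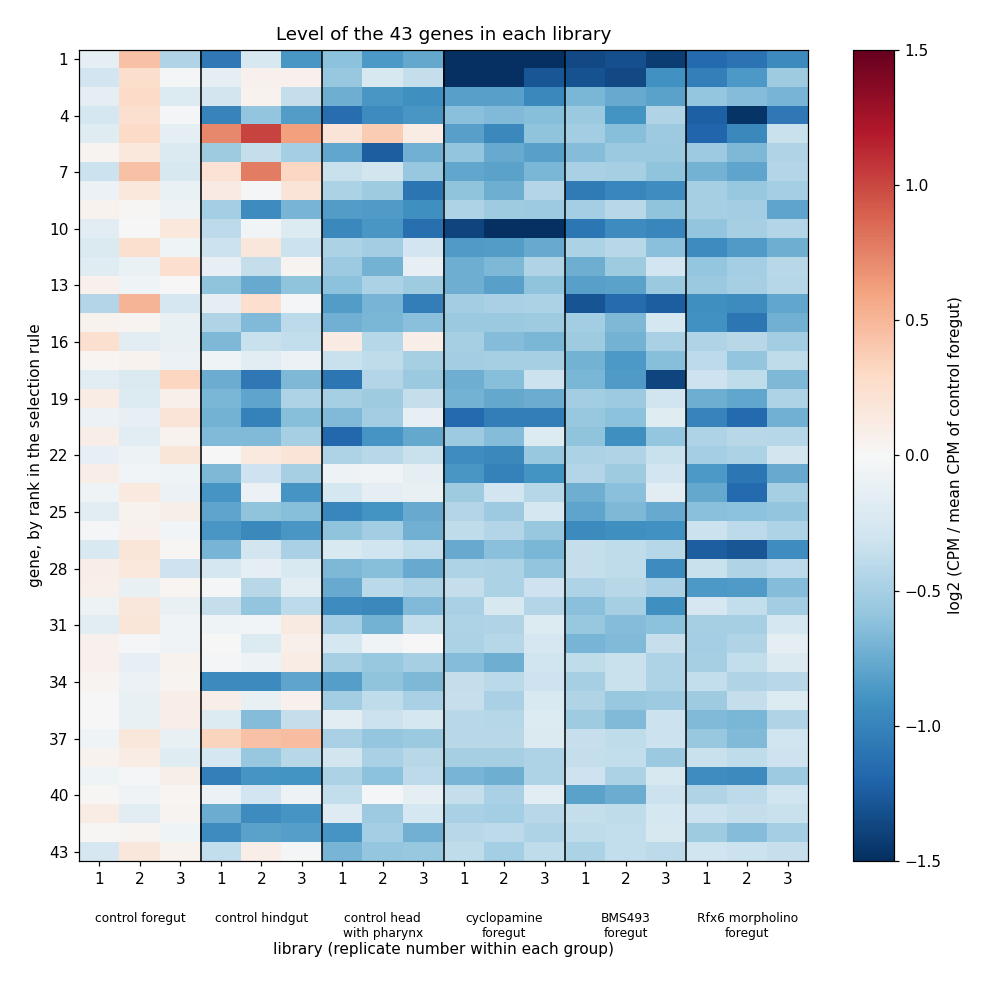
Level of each of the 43 genes (rows, by rank) in each of the 18 libraries (columns, by group), as log2 of CPM over the control foregut mean CPM, with colours held at -1.5 and 1.5. The 9 treated foregut libraries are below 0 for every gene, as the rule requires, while the hindgut and head with pharynx controls vary from gene to gene.

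XBXT10g005311, at rank 1, was the gene whose 3 ratios were all under 0.5. Its control foregut libraries held 7.50, 11.1 and 6.04 CPM (8.23 ± 2.63). The treated libraries held 2.42, 2.09 and 2.78 CPM with cyclopamine, 3.21, 3.30 and 3.07 CPM with BMS493 and 3.67, 3.81 and 4.25 CPM with the Rfx6 morpholino. The control libraries were spread wide, yet the lowest of them was still 1.42 times the highest treated library, the widest gap of the set. Its hindgut controls, at 3.93, 6.98 and 4.48 CPM, included 1 library inside the control foregut range and 2 below it. Its head with pharynx controls, at 5.38, 4.52 and 4.83 CPM, lay between the treated and the control foregut. The ratios to control foregut were 0.295, 0.388 and 0.475.

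XBXT10g014326, at rank 2, was at 17.3, 25.5 and 20.8 CPM in control foregut (21.2 ± 4.08). It was at 6.75, 6.76 and 8.67 CPM with cyclopamine, 8.55, 8.32 and 11.3 CPM with BMS493 and 10.4, 11.7 and 14.7 CPM with the Rfx6 morpholino. In each treated group replicate 3 was the highest library. Hindgut controls held 19.3, 22.2 and 22.1 CPM and head with pharynx controls 14.3, 17.9 and 16.5 CPM. For this gene the hindgut therefore matched the control foregut range, and all cyclopamine and BMS493 libraries were below every control library of any region.

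**Figure D3:**
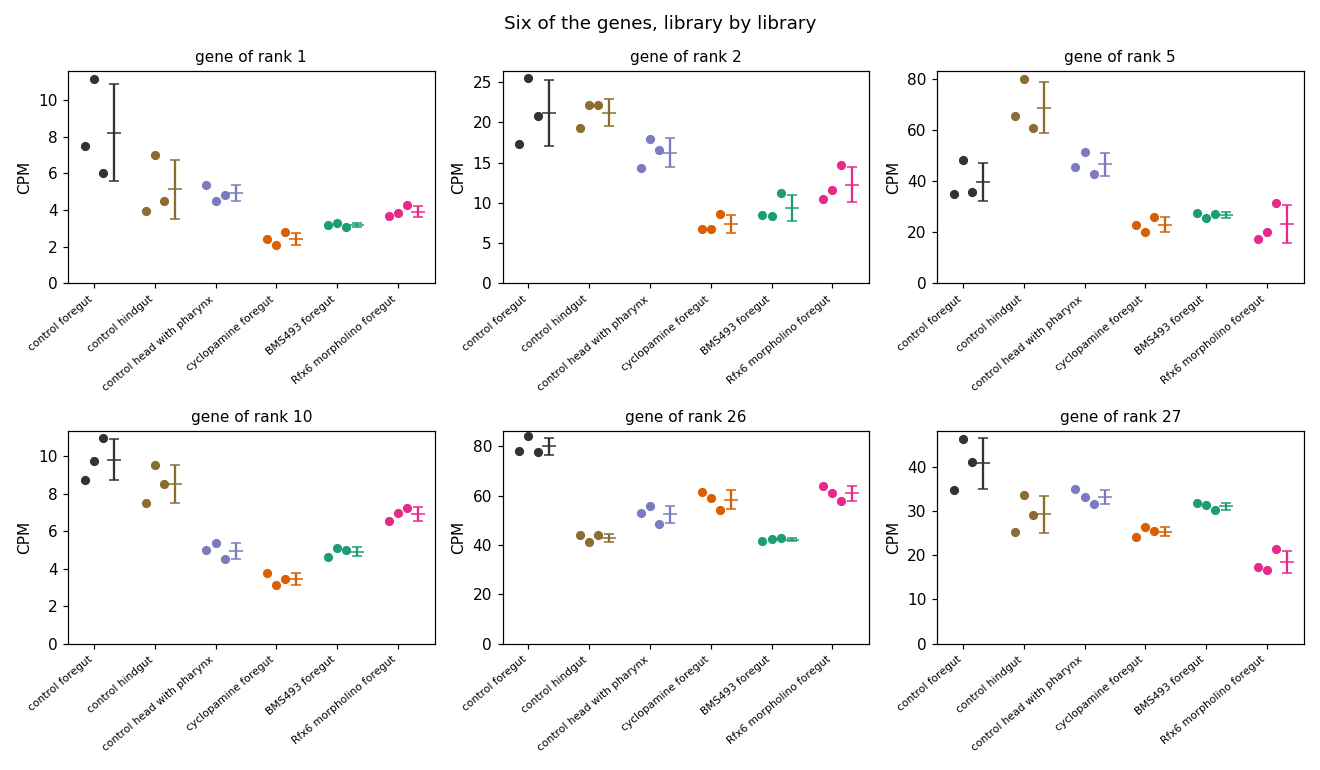
CPM in each library (points) with the group mean and SD (n = 3) for the genes of ranks 1, 2, 5, 10, 26 and 27, in the 6 groups. Control foregut is above every treated foregut library in each panel, and the order of the 3 treatments differs: rank 10 is lowest with cyclopamine (mean 3.46 CPM), rank 26 with BMS493 (42.2 CPM) and rank 27 with the Rfx6 morpholino (18.5 CPM).

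The regional flatness of the genes held to the 2-fold limit and not much further. The median fold between the highest and lowest region was 1.61 for the 43 genes (1.07 to 1.98), against 1.36 for all flat genes, and it was 1.5 or more in 26 of them, against 32.2% of flat genes. Control foregut was the highest region for 34 genes, hindgut for 9 and head with pharynx for 0. Among all flat genes the shares were 17.0%, 21.0% and 62.0%. The genes were lowest in head with pharynx in 27 cases, in hindgut in 15 and in foregut in 1. Every control foregut library lay above every head with pharynx library in 33 of the 43 genes, against 14.9% of flat genes, and above every hindgut library in 23, against 34.0%. The median gene stood in hindgut at 0.753 and in head with pharynx at 0.696 of its control foregut level, where the median flat gene stood at 0.926 and 1.13. The rule used control foregut as the base of its ratios, so a high level there belongs partly to the choice. Among the control regions only foregut has a morpholino in its labels, so region and morpholino cannot be told apart here.

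Other ways of scaling the libraries changed how many genes fell within the regional limit. With TMM factors in place of column totals, control foregut was highest for 27 of the 43 genes, hindgut for 16 and head with pharynx for 0, and 12 genes passed the 2-fold limit and were no longer flat. With the authors' TPM values (scaled for transcript length as well as depth) the counts were 33, 10 and 0, and 0 genes left the limit. The place of head with pharynx also moved. By column totals its median ratio to control foregut was 0.696, above the 0.684, 0.692 and 0.693 of cyclopamine, BMS493 and the Rfx6 morpholino. With TMM it was 0.617, below their 0.664, 0.639 and 0.677.

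The gene of rank 5 was the 1 gene of the set with control foregut as its lowest region. Its control foregut libraries held 34.8, 48.3 and 35.9 CPM (39.7 ± 7.48), its hindgut libraries 65.6, 79.9 and 60.6 CPM and its head with pharynx libraries 45.4, 51.5 and 42.8 CPM (46.6 ± 4.43). Cyclopamine libraries held 22.6, 20.2 and 26.0 CPM, BMS493 libraries 27.6, 25.4 and 27.2 CPM and Rfx6 morpholino libraries 17.4, 20.3 and 31.6 CPM. It was also the 1 gene of 43 in which all 9 treated libraries lay below all 6 libraries of the other control regions, against 0.818% of flat genes. Rank 32 had the narrowest regional fold, 1.07, and is given here after its values were seen. It held 28.7, 26.9 and 26.5 CPM in control foregut and 22.9, 26.4 and 27.4 CPM in head with pharynx. Its BMS493 libraries held 16.9, 17.2 and 21.5 CPM.

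In the edgeR fit of the 12 foregut libraries all 43 genes passed the filter on low counts, and the calls follow the choice. Calls rest on edgeR's quasi-likelihood test at an adjusted p under 0.05, with Benjamini-Hochberg adjustment over the 18542 genes tested. Called lower than control foregut were 39 of the 43 genes with cyclopamine, against 9.71% of all genes tested. With BMS493 all 43 were called lower, against 24.3%, and with the Rfx6 morpholino 40, against 8.99%. Called higher were 0 in each, against 10.2%, 22.3% and 8.25%. In all 3 treatments 38 were called lower, against 2.60% of genes tested. The median fitted log2 fold changes were -0.59, -0.66 and -0.57, where all genes tested had medians of 0.00, -0.00 and 0.00. The 3 contrasts share the control foregut libraries and were chosen on, so nothing is read from these counts.

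Which treatment lowered a gene most was not fixed by the rule, and the set was mixed in this. By column totals, cyclopamine gave the lowest mean in 17 genes, BMS493 in 15 and the Rfx6 morpholino in 11. This order depends on the scaling. With TMM factors the median ratios to control foregut were 0.664, 0.639 and 0.677, lowest with BMS493. The matching shares of flat genes were not counted. The 3 ratios of a gene spanned a median of 0.131 and less than 0.1 in 15 genes. Contrasts between treated groups do not contain control foregut. In those of the Rfx6 morpholino with a drug, the named morpholino and DMSO differ along with the treatment. The quasi-likelihood test of edgeR called 22 of the 43 genes in at least 1 of these 3 contrasts, against 55.5% of all genes tested. BMS493 was lower than cyclopamine in 7 genes (20.8% of all genes tested) and higher in 4 (17.9%), with a median log2 difference of -0.08. Against cyclopamine, the Rfx6 morpholino was lower in 3 genes (11.1%) and higher in 4 (10.2%), with a median of 0.04. Against BMS493, the Rfx6 morpholino was lower in 4 genes (17.3%) and higher in 12 (19.7%), with a median of 0.13. The share of genes called was near or under that of all genes in most of these contrasts. Flat genes had other shares. With BMS493 against cyclopamine, 22.5% of them were called lower and 12.3% higher. For the Rfx6 morpholino these shares were 10.7% and 9.15% against cyclopamine, and 11.6% and 20.2% against BMS493. The rule held all 3 ratios of a gene under 0.8, which left out genes lowered by only some treatments. Differences between treatments were therefore limited in advance for the 43 genes but not for all genes tested. Setting these shares side by side is a description only. The largest count was the 12 of 43 higher with the Rfx6 morpholino than with BMS493. That count was 5 to 7 without BMS493 replicate 1 or 2, Rfx6 morpholino replicate 2 or 3, or cyclopamine replicate 1. The 4 lower in that contrast became 2 without BMS493 replicate 1 or 3 or Rfx6 morpholino replicate 2, and 7 without Rfx6 morpholino replicate 3. For the Rfx6 morpholino against cyclopamine, 1 gene was lower without Rfx6 morpholino replicate 2 or cyclopamine replicate 1. In the same contrast 1 to 2 genes were higher without Rfx6 morpholino replicate 2 or cyclopamine replicate 1 or 2, and 7 without control foregut replicate 2. BMS493 was higher than cyclopamine in 2 genes without BMS493 replicate 2 or 3 or cyclopamine replicate 1 or 2.

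**Figure D4:**
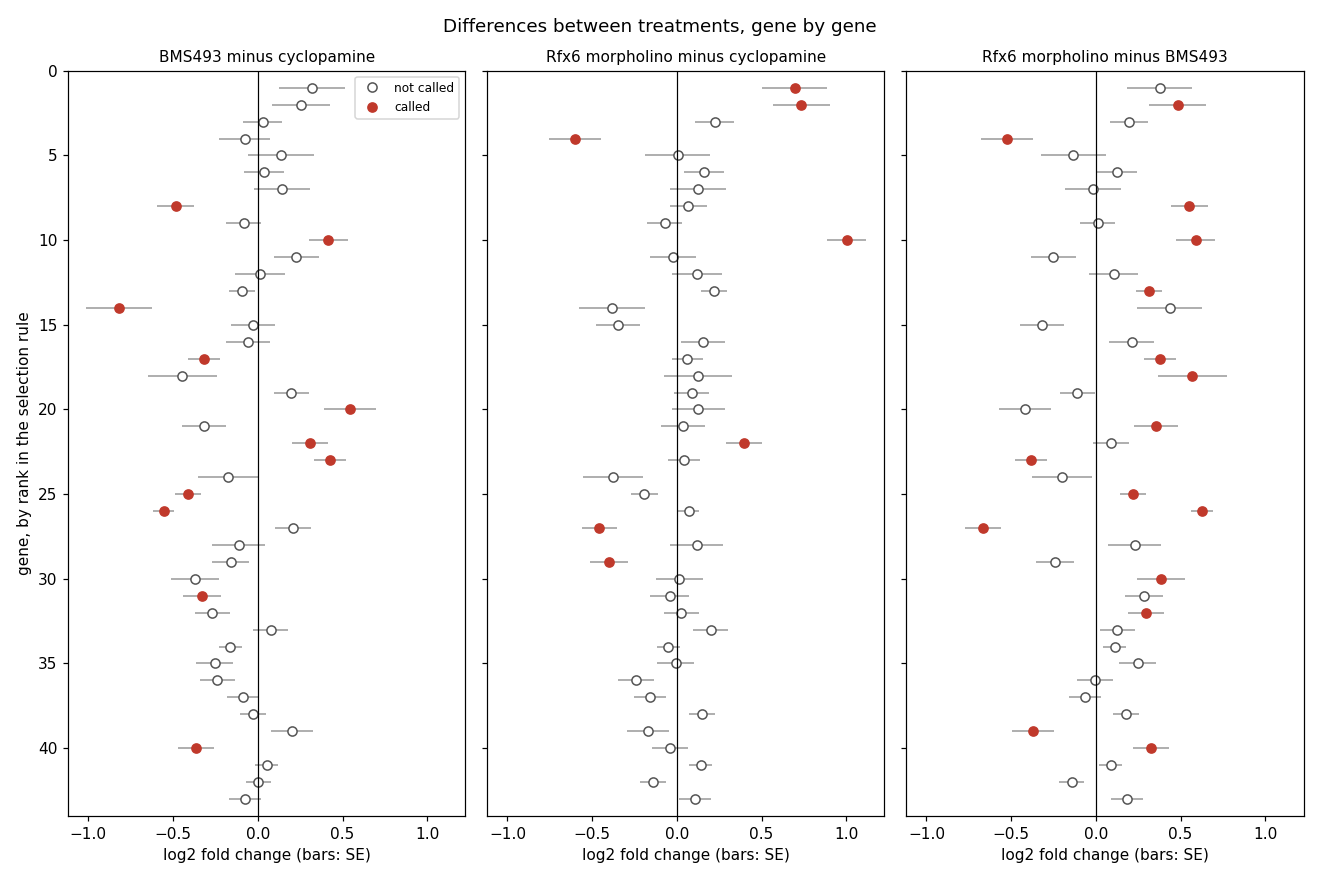
Fitted log2 fold change with its SE for each of the 43 genes by rank, in the 3 contrasts between treated foregut groups (n = 3 libraries each), with genes called at an adjusted p under 0.05 by edgeR filled in red. The points scatter on both sides of 0, with 11, 7 and 16 genes called in BMS493 against cyclopamine, Rfx6 morpholino against cyclopamine and Rfx6 morpholino against BMS493.

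Cyclopamine was called lower than both other treatments in 2 genes, at ranks 10 and 22, of which rank 22 is named after its values were seen. The Rfx6 morpholino was called higher than both drugs in 2 genes, at ranks 2 and 10. The share of all genes called against both other treatments was not counted, so such counts here and below only describe the set. The gene of rank 10 held 8.75, 9.76 and 11.0 CPM in control foregut (9.82 ± 1.1), 3.78, 3.14 and 3.46 CPM with cyclopamine, 4.62, 5.10 and 4.99 CPM with BMS493 and 6.53, 6.97 and 7.27 CPM with the Rfx6 morpholino. The 3 treated groups did not overlap, in that order. Its level was higher with the Rfx6 morpholino than with cyclopamine by 1.00 on the log2 scale (SE 0.11, adjusted p = 0.000128, edgeR) and than with BMS493 by 0.59 (SE 0.11, adjusted p = 0.00161). The difference of BMS493 from cyclopamine, 0.42 (SE 0.11, adjusted p = 0.0130), missed the threshold without BMS493 replicate 2 (0.0505) or without cyclopamine replicate 2 (0.0607). XBXT10g014326 was higher with the Rfx6 morpholino than with cyclopamine by 0.74 (SE 0.17, adjusted p = 0.00967), a call that just missed the threshold of 0.05 without cyclopamine replicate 1. The same gene was above its BMS493 level by 0.48 (SE 0.17, adjusted p = 0.0411), which was lost without BMS493 replicate 1 or 2, Rfx6 morpholino replicate 2 or 3, cyclopamine replicate 1 or 2, or control foregut replicate 3 (0.0515 to 0.143). This call was also lost with total counts alone (0.0969). XBXT10g005311 was higher with the Rfx6 morpholino than with cyclopamine by 0.70 (SE 0.19, adjusted p = 0.0236), and the call was lost without any 1 of 4 libraries, cyclopamine or Rfx6 morpholino replicates 1 and 2 (0.0504 to 0.0989). It was also lost without replicate 3 of all treated groups (0.0626).

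BMS493 was called lower than both other treatments in 5 genes, at ranks 8, 17, 25, 26 and 40, of which rank 17 is named after its values were seen. Both calls of rank 40 depended on single libraries. Its call against cyclopamine (edgeR, adjusted p = 0.0169) was lost without BMS493 replicate 1 or 2 or cyclopamine replicate 3 (0.0715 to 0.0740). That against the Rfx6 morpholino (0.0294) was lost without BMS493 replicate 1 or 2 or Rfx6 morpholino replicate 2 or 3 (0.0767 to 0.123). Both calls were also lost with total counts alone (0.0733 and 0.125) or with only the 6 libraries compared (0.0628 and 0.0689). The gene of rank 26 was at 78.3, 84.0 and 77.9 CPM in control foregut (80.1 ± 3.45), 61.6, 59.2 and 54.1 CPM with cyclopamine, 41.5, 42.4 and 42.7 CPM with BMS493 and 64.0, 60.9 and 57.9 CPM with the Rfx6 morpholino. Cyclopamine and the Rfx6 morpholino overlapped, and BMS493 lay below both. Its level with BMS493 differed from cyclopamine by -0.56 (SE 0.06, adjusted p = 5.32e-05, edgeR) and with the Rfx6 morpholino it was above BMS493 by 0.63 (SE 0.06, adjusted p = 2.56e-05). A gene at rank 8, at 7.44, 8.83 and 7.38 CPM in control foregut, held 5.19, 4.75 and 5.81 CPM with cyclopamine, 3.79, 4.0 and 4.15 CPM with BMS493 and 5.57, 5.31 and 5.52 CPM with the Rfx6 morpholino. Here too only BMS493 stood apart, at -0.49 from cyclopamine (SE 0.11, adjusted p = 0.00435). At rank 14, a gene called against cyclopamine alone was at 54.7, 56.3 and 56.6 CPM with cyclopamine and 32.2, 35.3 and 33.5 CPM with BMS493. The difference was -0.82 (SE 0.19, adjusted p = 0.00751). That call was lost without replicate 3 of all treated groups (0.0738) or with treated replicates 1 and 2 summed (0.0780). Control foregut replicate 2 was high for this gene, at 112 CPM against 57.9 and 65.8 CPM in replicates 1 and 3. Rank 25, with the highest CPM of the set in control foregut (105 ± 9.75), was lower with BMS493 than with cyclopamine by 0.41 in absolute log2 size (SE 0.08, adjusted p = 0.00160). Its difference of the Rfx6 morpholino from BMS493, 0.22 (adjusted p = 0.0446), was lost without any 1 of 7 treated libraries, namely all 3 of each of those groups and cyclopamine replicate 1 (0.0506 to 0.130). That call was also lost with DESeq2 (0.0555), RLE scaling (0.0606), no filter (0.0624) or total counts alone (0.227), and without replicate 3 of all treated groups (0.110).

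BMS493 was called higher than both other treatments in 1 gene, at rank 23. It held 18.7, 17.1 and 16.8 CPM in control foregut, 9.53, 8.68 and 9.38 CPM with cyclopamine, 12.9, 12.1 and 14.4 CPM with BMS493 and 9.67, 8.26 and 10.4 CPM with the Rfx6 morpholino. All BMS493 libraries were above all libraries of the other treatments, at 0.43 above cyclopamine (SE 0.09, adjusted p = 0.00379, edgeR). Rank 20 was higher with BMS493 (4.04 ± 0.705 CPM) than with cyclopamine (2.59 ± 0.135 CPM) by 0.54 (SE 0.15, adjusted p = 0.0148), and this call was lost without BMS493 replicate 3 (0.0538) or cyclopamine replicate 1 (0.0624).

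The Rfx6 morpholino gave the lowest level in 2 genes called against both drugs. The gene of rank 27 held 34.8, 46.4 and 41.1 CPM in control foregut (40.8 ± 5.80), 24.2, 26.4 and 25.4 CPM with cyclopamine, 31.7, 31.3 and 30.2 CPM with BMS493 and 17.3, 16.7 and 21.4 CPM with the Rfx6 morpholino. The 3 treated groups did not overlap. The difference from cyclopamine was -0.46 (SE 0.11, adjusted p = 0.00953, edgeR) and from BMS493 -0.67 (SE 0.11, adjusted p = 0.000463). The call against cyclopamine was lost with treated replicates 1 and 2 summed (0.158). Rank 4 was at 5.42, 5.29 and 5.38 CPM with cyclopamine, 5.67, 4.49 and 6.10 CPM with BMS493 and 3.58, 3.01 and 3.98 CPM with the Rfx6 morpholino. Its difference from cyclopamine was -0.60 (SE 0.15, adjusted p = 0.0153), and the call was lost without Rfx6 morpholino replicate 2 (0.0723) or cyclopamine replicate 1 (0.0505). Its difference from BMS493 was -0.53 (SE 0.15, adjusted p = 0.0174), and that call was lost without BMS493 replicate 1 (0.0621) or 3 (0.0521) or Rfx6 morpholino replicate 2 (0.0801).

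The other 21 genes were not called in any contrast between treatments. Their largest difference was 0.38 on the log2 scale, the farthest bound of a 95% interval was 0.72, and the median distance from a fold change to its interval's bound was 0.21. These values do not show that the treatments acted alike on these genes. Rank 9 had the smallest spread of ratios of the 43 genes (0.0394), with means of 8.90, 8.90 and 8.40 CPM with cyclopamine, BMS493 and the Rfx6 morpholino. Its interval of the Rfx6 morpholino minus cyclopamine still ran from -0.27 to 0.13 on the log2 scale. In TPM its ratios to control foregut were 0.850, 0.702 and 0.633. Cyclopamine replicate 1 was at 21.8 TPM there, against 12.2 and 12.5 TPM in replicates 2 and 3.

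Set beside the other control regions, the treated foregut was below the hindgut level for most of the genes and near the head with pharynx level. Means were below hindgut for 30 genes with cyclopamine, 31 with BMS493 and 31 with the Rfx6 morpholino, against 30.7%, 31.3% and 29.6% of flat genes. Means were below head with pharynx for 24, 26 and 23 genes, against 64.4%, 64.7% and 66.5%. Without overlap of libraries, 22, 20 and 22 genes were below hindgut, against 17.4%, 19.5% and 13.8% of flat genes, and 13, 9 and 8 were below head with pharynx, against 45.0%, 28.4% and 46.0%. In the other direction, 6, 5 and 7 genes lay above hindgut without overlap, against 50.6%, 54.5% and 46.8%, and 12, 7 and 11 above head with pharynx, against 21.7%, 13.1% and 19.8%. The median gene in treated foregut stood at 0.839, 0.854 and 0.812 of hindgut and at 0.935, 0.974 and 0.986 of head with pharynx. All of these values use column totals, and the median order against head with pharynx turned with TMM.

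The fit of all 18 libraries gives the same comparison against the mean of both other regions, with region and treatment differing together, over 19011 genes tested. It is a description, since the rule limited both sides of it. Called lower by edgeR were 17 of 43 genes with cyclopamine (18.1% of genes tested), 21 with BMS493 (16.4%) and 15 with the Rfx6 morpholino (14.2%). Called higher were 4 (22.7%), 3 (21.6%) and 4 (18.2%). Without Rfx6 morpholino replicate 1 or 2, the counts of that group were 8 lower and 2 higher. The medians of the log2 fold change were -0.15, -0.24 and -0.22. Control foregut itself was called higher than the other regions in 30 genes (18.8%) and lower in 1 (15.5%), with a median of 0.41. In that contrast region and the named morpholino differ together. The 1 lower gene was that of rank 5, and the call was lost without control foregut replicate 1 or 3 or hindgut replicate 2.

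The genes differed from each other in this comparison, partly through the rule. In 8 of the 43 the treated foregut was below the other regions in all 3 treatments, against 2.92% of genes tested, and in 27 it was below in at least 1, against 33.2%. Of the 30 genes in which control foregut was higher than the other regions, 14 were called lower than those regions in none of the treatments and 2 in all 3. Of the 13 genes in which control foregut was not called higher, 11 were lower in at least 1 treatment and 6 in all 3. A gene higher in control foregut starts farther above the other regions. All genes tested were not split in this way, so nothing is read from this split.

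**Figure D5:**
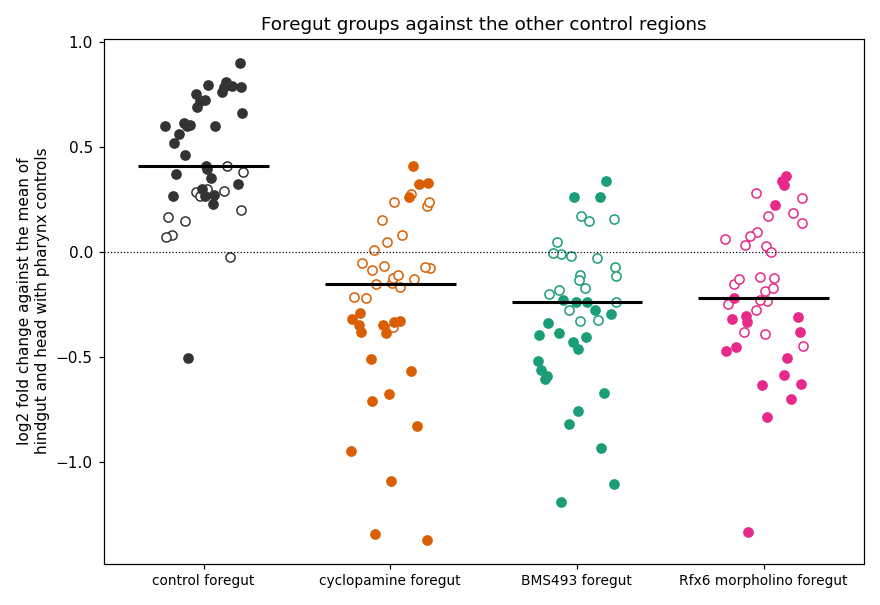
Fitted log2 fold change of each of the 43 genes in each foregut group (n = 3 libraries) against the mean of control hindgut and control head with pharynx, with genes called at an adjusted p under 0.05 by edgeR filled and the median of the 43 genes as a black bar. Control foregut lies mostly above 0 (median 0.41) and the treated groups mostly below it (-0.15, -0.24 and -0.22), with single genes from below -1 to above 0.3 in each treated group.

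The choice of region as base, tried once the data had been seen, changed these counts. Against hindgut alone, 28, 30 and 26 genes were called lower with cyclopamine, BMS493 and the Rfx6 morpholino (25.2%, 31.1% and 21.3% of genes tested) and 3, 4 and 3 higher (25.3%, 31.6% and 21.1%), with medians of -0.45, -0.49 and -0.49. Against head with pharynx alone, 8, 8 and 3 genes were called lower (27.1%, 8.30% and 26.3%) and 12, 4 and 14 higher (28.7%, 15.9% and 28.3%), with medians of 0.03, 0.02 and 0.12.

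Means of the 43 genes in control foregut ran from 5.05 to 105 CPM, with a median below that of flat genes. Their lengths varied widely, with a median near that of flat genes. The median control foregut level was 15.4 CPM, against 33.6 CPM for flat genes, with 16 genes at 5 to 10 CPM (12.7% of flat genes), 19 at 10 to 50 CPM and 8 at 50 CPM or more (35.6%). A relative length was taken as the ratio of counts to TPM set against the median gene. It had a median of 0.981 for the 43 genes (quartiles 0.664 and 1.99) and 1.01 for flat genes (0.630 and 1.62). Per length, the highest was the gene of rank 40, at 135 TPM in control foregut. Rank 38 was at 95.7 CPM and 9.58 TPM, being the longest of the set at 6.96 times the median gene. In TPM, all 3 ratios were under 1 in all 43 genes and under 0.8 in 41, with medians of 0.657, 0.676 and 0.663.

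Libraries of some groups did not spread evenly over the genes. The highest treated library was a replicate 3 in 33 of the 43 genes, against 42.2% of flat genes. Within groups, replicate 3 was highest in 27 genes with cyclopamine and 31 with the Rfx6 morpholino, against 45.4% and 48.7%. With BMS493 it was highest in 22, near the 48.6% of flat genes. The treated replicates 3 were also the smaller libraries, at 29667904 to 35288038 counts against 40903171 to 81614727 for replicates 1 and 2, and the part of this in the results was not tested. By a median chi-square, a scale of squared differences, counts of treated replicates 1 and 2 differed by 2.48, 2.60 and 2.77 times sampling noise. This was less than for any other pair within those groups (5.36 to 10.1). Treated replicates 1 and 2 were counted as separate libraries. Whether they share explants or RNA is not known. Control foregut replicate 2 was the highest control library in 21 of the 43 genes, near the 41.9% of flat genes. The median coefficient of variation was 10.6% in control foregut, against 7.68% for flat genes, and 6.49% to 8.58% in the treated groups, against 4.74% to 5.26%.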

How the data were processed

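Expression was measured by RNA sequencing in 18 libraries. The authors deposited estimated counts, all whole numbers, and the submitters' processing notes name RSEM 1.3.0 with Bowtie2. The deposited TPM values were scaled by the authors for length and depth. Per the labels' protocols, the kit was stranded and selected messenger RNA. The sources used here do not name a genome build or annotation. The entry that names no gene had 0 counts. Columns were matched to sample titles.

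The members, lists and tests were chosen with earlier results of these data known. CPM used column totals. The test was edgeR 4.0.16 (R 4.3.3; robust quasi-likelihood, TMM, minimum count 10, group as the only term), with Benjamini-Hochberg adjustment over all genes tested, in a fit of 12 foregut libraries and a fit of all 18. It was tested on simulated data. The common biological coefficient of variation was 0.139 and 0.127. Intervals are 1.96 SE on each side, which is somewhat narrower than a 95% interval by the quasi-likelihood test. The rule for named genes took ranks 1 to 10, the last rank, the 3 highest in control foregut CPM, and the 2 largest called differences in each direction between treatments. At most 2 identifiers are printed. How reads of near-identical gene copies were shared was not looked at, so single genes of such families are uncertain. No label ties libraries to separate clutches, and p-values measure only the spread between these samples, which may be technical. Library totals were 26006163 to 96814679 counts. By the median chi-square of squared differences, replicates of a group differed by 2.48 to 13.7 times sampling noise. The spread between libraries therefore limited the precision beyond counting error. Same-numbered libraries deviated together (every r above 0.1) between the Rfx6 morpholino group and each drug group (0.37 to 0.39 with cyclopamine, 0.23 to 0.40 with BMS493) and between control foregut and hindgut (0.35 to 0.58), but not in the other 12 of 15 pairs of groups. This pairing comes from the data, since no label explains the numbers. Alternatives were other scalings (RLE, total counts alone), DESeq2 1.42.0, no filter, fits of 6 libraries, leaving out libraries, summing treated replicates 1 and 2, and a replicate block.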

Additional observations from a re-analysis of the deposited data

How the results depend on the processing

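The rule was met by 61 genes with TMM and 50 with TPM, and 31 and 27 of the 43 were among them. It was met by 74 with RLE, 17 with a regional limit of 1.5, 8 with a ratio limit of 0.7 and 19 at 20 CPM or more. Leaving out 1 library gave 39 to 77, the highest without control foregut replicate 3, when 34 of the 43 met it.

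With treated replicates 1 and 2 summed, 23 members were lower with cyclopamine and 21 with the Rfx6 morpholino than in control. BMS493 was then lower than cyclopamine in 3 and higher in 1, the Rfx6 morpholino lower than cyclopamine in 0 and higher in 1, and lower than BMS493 in 1 and higher in 3. Among named genes, the summing lost the calls of BMS493 against cyclopamine at ranks 10, 14, 20 and 40. Calls of the Rfx6 morpholino were lost against cyclopamine at ranks 1, 2, 4 and 27. Against BMS493 they were lost at ranks 2, 4, 23, 25 and 40. Summing leaves fewer libraries. Over all genes, the lower calls against control went from 1801 to 469 with cyclopamine. With the Rfx6 morpholino they went from 1667 to 541 (856 with only 6 libraries). With total counts alone, BMS493 was lower than cyclopamine in 4, the Rfx6 morpholino lower than BMS493 in 8 and higher in 5, and BMS493 above the other regions in 5. Without a filter the Rfx6 morpholino was above BMS493 in 7, and with only the 6 libraries compared above cyclopamine in 7. A replicate block gave 11 members with BMS493 lower than cyclopamine, groups whose numbers did not pair. Where numbers paired, with the Rfx6 morpholino against each drug, the block gave 4 lower and 5 higher against cyclopamine and 5 lower and 11 higher against BMS493. It lost no call of a named gene. Against hindgut alone, 28 were lower with cyclopamine and 26 with the Rfx6 morpholino. Against head with pharynx alone, 8 were lower and 12 higher with cyclopamine, 8 lower with BMS493, and 3 lower and 14 higher with the Rfx6 morpholino. The cause was not tested for any of these.

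Leaving out 1 library gave 29 to 41 members lower than control with cyclopamine, 42 to 43 with BMS493 and 29 to 42 with the Rfx6 morpholino. BMS493 was lower than cyclopamine in 5 to 9 and higher in 2 to 4. The Rfx6 morpholino was lower than cyclopamine in 1 to 4 and higher in 1 to 7, and lower than BMS493 in 2 to 7 and higher in 5 to 15. Below the other regions were 13 to 20 with cyclopamine, 16 to 22 with BMS493 and 8 to 17 with the Rfx6 morpholino (8 without its replicate 1 or 2), and above them 4 to 6, 2 to 3 and 2 to 5. Control foregut was below them in 0 to 1 and above in 27 to 31. No called fold change of a named gene reversed. Calls were lost in 86 cases and kept in 1660 when 1 library was left out, and lost in 50 and kept in 799 under other settings. These cases include the contrasts with control foregut, on which the genes were chosen. They therefore do not measure how stable the calls between treatments were.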
